A study of Mus musculus with 24 samples.

Results

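The data cover 9 complement and complement regulator genes, C3, C4b, C2, Cfb, Cfi, Hc, C9, Cd55 and Cd59a. They were found by symbol, and each of the 9 has 1 row in each of 3 tables of FPKM (fragments per kilobase of gene length, scaled to the depth of the library), among 31053, 25876 and 20729 rows. The study grew organoids, which are small three-dimensional cultures in a gel, from the livers of adult wild-type BALB/c mice, and the 24 libraries fall into 10 groups. The hepatocyte table holds primary hepatocytes (Pri-Hep), purified on a Percoll gradient and by removal of EpCAM-positive cells, and hepatocyte organoids (Hep-Orgs) at passages P1, P5 and P10, with 3 libraries per group. These organoids were grown in a hepatocyte medium (Hep-Med) to which the Notch pathway inhibitor DAPT and the glucocorticoid dexamethasone (Dex) had been added. The cholangiocyte table holds cholangiocyte organoids (Cho-Orgs), started from EpCAM-positive cells, at P0, P5 and P10 with 3 libraries each. The Smart-Seq table holds 3 libraries of Hep-Orgs picked by shape at P0, 1 of grape-like, 1 of intermediate and 1 of round-like organoids, in Hep-Med that held neither DAPT nor Dex. The sources describe replicates both as 3 mice and as independent cultures, so p-values measure only the spread between these libraries. Each table was normalised on its own, and levels from different tables are only set side by side.

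Complement is a cascade of plasma proteins that marks microbes and debris and punches holes in membranes, and the liver makes most of its soluble parts. C3 is the hub. The classical and lectin pathways cleave C4 and C2 to build a C3-cleaving enzyme, the alternative pathway builds another from C3 itself and factor B (Cfb), and both lead on to C5 (Hc in the mouse) and to the pore, whose main wall protein is C9. Factor I (Cfi) is the plasma protease that cuts activated C3 and C4 fragments, Cd55 on the cell surface takes the C3-cleaving enzymes apart, and Cd59a on the cell surface blocks the pore.

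The libraries labelled Pri-Hep did not carry a hepatocyte profile. Albumin (Alb) was 112 ± 7.99 FPKM (SD, n = 3) and the hepatocyte cytochrome Cyp3a11 4.93 ± 0.603, while the biliary keratin Krt19 was 237 ± 6.66 and osteopontin (Spp1) 3144 ± 56.7. Over the 12 libraries of that table, 10 hepatocyte markers summed to 609 to 671 FPKM and 10 cholangiocyte markers to 3845 to 4062. Spp1 gave most of the cholangiocyte sum, which was 3896 to 3992 FPKM in Pri-Hep. The 10 macrophage markers summed to 7.34 to 9.86 FPKM, with Cd68 and Csf1r at 1 FPKM or more in every library, while 5 of 10 (Adgre1, Clec4f, Cd5l, Marco and Timd4) were listed at 0 in all 12. The label is therefore kept only as a name below. Depth was 14068906 to 27160365 fragments in the hepatocyte table and approximately 37500000 to 39900000 in the cholangiocyte and 40000000 to 40400000 in the Smart-Seq table.

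Of the 9 genes, 4 lie on chromosome 17 of the mouse genome (mm10, also called GRCm38). C4b is at chr17:34728380-34743882, Cfb at chr17:34856374-34862518, C2 at chr17:34862604-34898265 and C3 at chr17:57203970-57228136, each on the minus strand. Cfb and C2 are neighbours on the same strand with 85 bases between them. Hc (chr2:34983331-35061438, minus strand) and Cd59a (chr2:104095801-104115354, plus strand) share chromosome 2. Cfi is at chr3:129835884-129875332 on the plus strand, C9 at chr15:6445327-6498751 on the plus strand, and Cd55 at chr1:130439027-130462744 on the minus strand.

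RefSeq start regions were at hand for 5 of the 9 genes, C3, Hc, C9, Cd55 and Cd59a. The 250 bases before the start are shown for C3 and Cd55, because these genes moved in opposite directions between P0 and P5 of Cho-Orgs. Both lie before the minus-strand start on GRCm38.p6, that of C3 at chr17:57228137-57228386 and that of Cd55 at chr1:130462745-130462994. Letters that match the C/EBP motif TTGCNNAA, a site for liver and acute phase transcription factors, are in capitals.
C3: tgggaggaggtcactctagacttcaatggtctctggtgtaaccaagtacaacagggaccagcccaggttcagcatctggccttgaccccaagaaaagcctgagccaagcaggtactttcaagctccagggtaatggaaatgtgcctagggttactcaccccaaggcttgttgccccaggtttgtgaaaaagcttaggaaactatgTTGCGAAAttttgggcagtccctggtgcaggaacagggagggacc
Cd55: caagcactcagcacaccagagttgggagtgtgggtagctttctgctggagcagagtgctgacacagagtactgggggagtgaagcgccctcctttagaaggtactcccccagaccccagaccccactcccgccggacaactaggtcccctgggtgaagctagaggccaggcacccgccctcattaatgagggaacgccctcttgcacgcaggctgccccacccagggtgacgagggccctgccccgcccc
The C3 window held 1 match, from base -45 to base -38 counted from the start, and the Cd55 window held none. Of the windows not shown, that of C9 held a C/EBP match, from base -132 to base -125, and those of Hc and Cd59a held none. C9, Hc and Cd59a were all lower at P5 than at P0 of Cho-Orgs, as C3 was. On either strand, this motif occurred in 9.56% of all 32851 windows of that length. Neither the C3 nor the Cd55 window matched TATAAA, found in 12.4% of windows, the STAT motif TTCNNNGAA, found in 7.02%, or the NF-kappaB consensus, found in 7.25%. GC content was 52.0% before C3, 64.0% before Cd55, and 52.4% at the median of all windows. A match is a description of letters and says nothing on binding.

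Complement RNA of the 9 genes was dominated by C3 in the hepatocyte table, and the late components Hc and C9 were at or near 0. C3 was listed at 1476, 1457 and 1495 FPKM in the 3 Pri-Hep libraries, at 1503, 1491 and 1497 at P1, at 1521, 1510 and 1532 at P5, and at 1522, 1499 and 1521 at P10. It ranked 15th or 16th of all genes and took 0.489% to 0.514% of the summed FPKM. The 12 values had a coefficient of variation of 1.42%, and Pri-Hep overlapped P1, though not P5 or P10.

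Cfi was 30.8 to 34.4 FPKM over the 12 libraries, C4b 20.1 to 22.7, Cd55 4.17 to 5.14 and Cfb 1.87 to 3.61. C2 was 0.375 to 0.680 FPKM and Cd59a 0.556 to 1.08, which rest on 26 to 53 and 19 to 35 fragments per library. Hc was listed at 0 in 10 of the 12 libraries, with 1 fragment in each of the others. C9 was listed at 0 in all 12, and 3 fragments, the limit that a count of 0 allows, would be 0.0622 to 0.0836 FPKM in the 4 groups. In levels per length the order in all 12 libraries was C3, Cfi, C4b, Cd55, Cfb, with C2 and Cd59a at most 1.08 FPKM and exchanging places between libraries.

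Limma called no member in this table. Of the 9 genes, 5 (C3, Cfi, C4b, Cd55 and Cfb) reached 1 FPKM in 3 libraries or more and were tested with limma on log2(FPKM + 1). Among the 4 groups 0 of 5 passed an adjusted p of 0.05 and 0 of 5 had an unadjusted p under 0.05, beside 0.0182% of all 10986 genes called and 1098 genes with an unadjusted p under 0.05. For all Hep-Orgs against Pri-Hep limma again called 0 of 5 members, of which 1 had an unadjusted p under 0.05, beside 0% of all genes called and 966 genes with an unadjusted p under 0.05. A fit of the recovered fragments with limma-voom called 65 and 12 genes in these comparisons, and 0 members in either. The member with an unadjusted p under 0.05 was C3, whose level was 0.03 higher in Hep-Orgs in log2 (95% confidence interval 0.00 to 0.06, limma adjusted p = 0.52). Limma-voom called C3 for P5 alone against Pri-Hep, with a log2 difference of 0.05 and an adjusted p of 0.036.

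The intervals below are on the log2(FPKM + 1) scale, which understates changes of low genes such as Cfb. The members that were not tested, C2, Cd59a, Hc and C9, have none. For all Hep-Orgs against Pri-Hep, the log2 difference was -0.01 for Cfi (95% confidence interval -0.07 to 0.06), -0.04 for C4b (-0.11 to 0.02), -0.04 for Cd55 (-0.14 to 0.07) and 0.14 for Cfb (-0.10 to 0.38). For Cfb in the same comparison, limma-voom on the recovered fragments gave a wider interval, with 0.23 (95% confidence interval -0.04 to 0.51). Between P10 and P5, which leaves out the Pri-Hep libraries, the 5 differences in limma lay between -0.02 and 0.08. The spread of C2, Cfi, Cd55 and Cd59a over the 12 libraries was 0.91 to 1.51 times the variance of pure counting, that of C4b 2.61 times, that of Cfb 4.27 times and that of C3 27.4 times.

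Most other complement genes were low in this table. The 5 lists by role hold 53 complement genes, members included. Of the 44 that are not members, 43 had a row and 10 were tested. Limma called 0 of the 10 among the 4 groups, with 1 at an unadjusted p under 0.05. For all Hep-Orgs against Pri-Hep limma called 0 of the 10, with 2 at an unadjusted p under 0.05. Limma-voom also called 0 in both comparisons, with 1 at an unadjusted p under 0.05 in each. Clusterin (Clu), a secreted chaperone that also holds back the pore, was the highest of all at 2771 to 2881 FPKM, above C3. C1qa, C1qb and C1qc, which form the recognition unit of the classical pathway, were listed at 0 in all 12 libraries, as was C6 of the pore.

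In Cho-Orgs most of the 9 genes lost RNA with passage, by very different amounts, while Cd55 rose and fell back. C9 had no library at 1 FPKM and was not tested. Hc reached 1 FPKM at P0 alone, so it could only be called lower than P0 and is left out of the counts. Between P0 and P5, 6 of the other 7 members fell and 1 rose. Over all 11593 genes tested, 22.6% fell and 34.0% rose in that comparison, and with median-ratio size factors, which kept the members' calls, 29.8% fell and 26.6% rose. Between P5 and P10, 5 of 7 fell and 1 rose, beside 30.5% and 31.0% of all genes. From P0 to P10, 6 of 7 fell and 0 rose, also at an unadjusted p under 0.05 in limma, beside 31.3% and 41.0%. The median log2 change of the 7 was -1.98, -0.56 and -2.64 in these comparisons, where that of the 11201 genes that reached 1 FPKM at more than 1 passage was 0.07, 0.01 and 0.08. Of those 11201 genes, 21.4%, 30.4% and 30.3% fell and 34.1%, 31.3% and 41.5% rose. With FPKM rescaled to TPM, the median of all genes was 0.11 for P5 against P0 and 0.10 for P10 against P0.

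**Figure D1:**
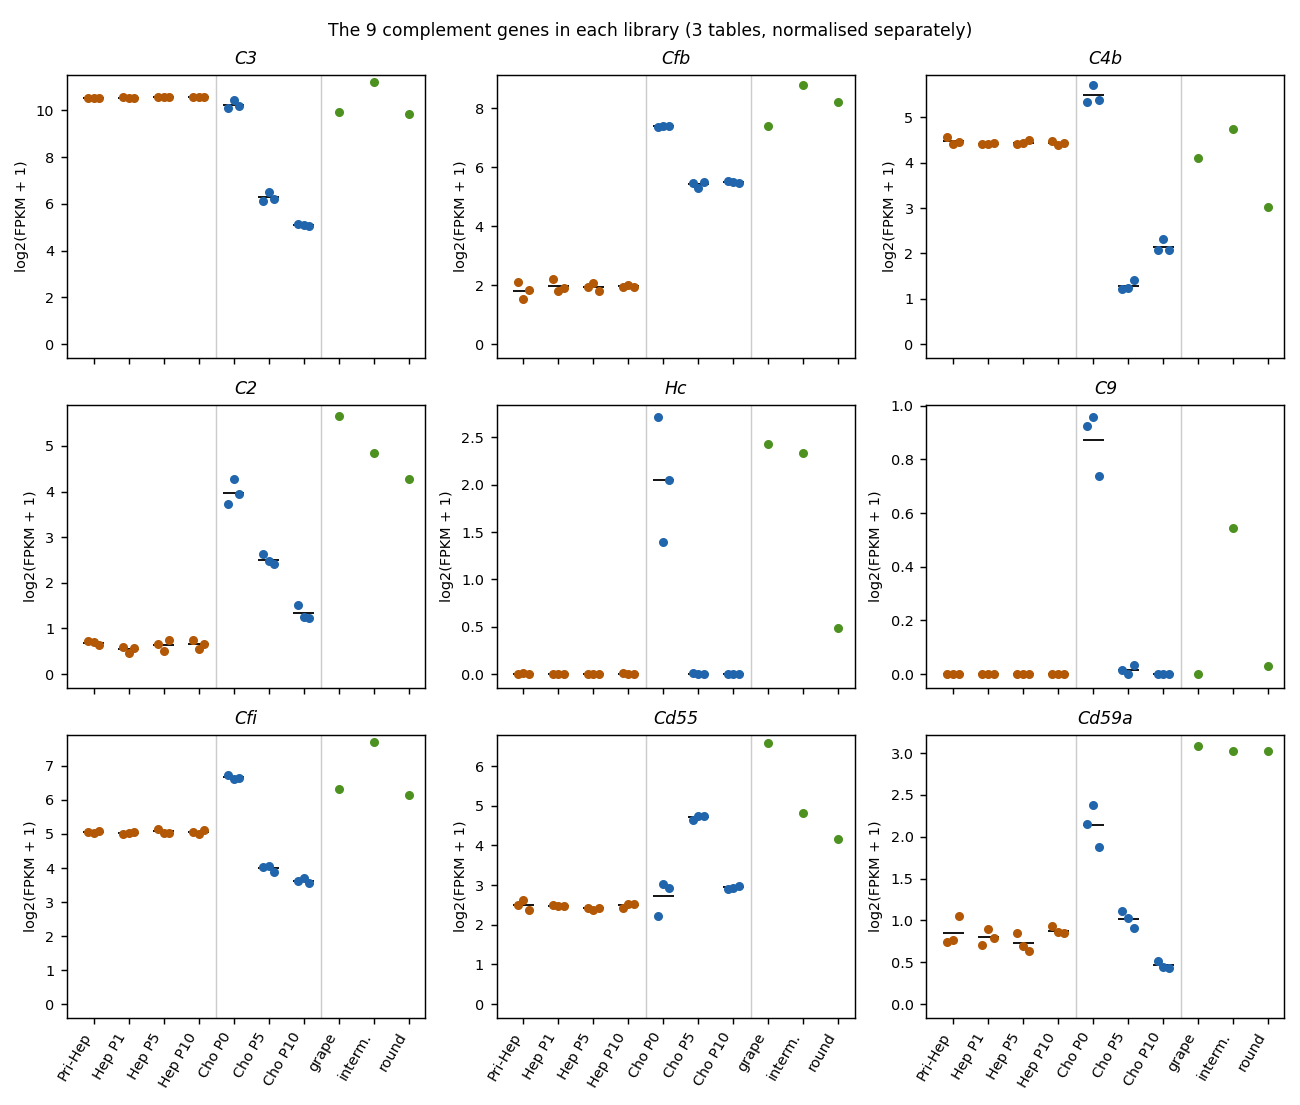
Level of each of the 9 genes in every library, as log2(FPKM + 1) on the vertical axis, with points for libraries and black lines for means of 3. Brown points are the hepatocyte table, blue points Cho-Orgs and green points the single Smart-Seq libraries. The brown points stay level in all 9 panels, the blue points step down from P0 except in Cd55, which peaks at P5, and Hc and C9 lie at or near 0 outside Cho-Orgs P0 and the Smart-Seq libraries.

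C3 fell furthest in absolute terms. It was 1107, 1378 and 1180 FPKM at P0, 67.7, 89.2 and 73.5 at P5, and 34.6, 33.6 and 32.1 at P10. The 3 passages did not overlap, and the rank of C3 among all genes went from 27 to 43 at P0 to 1884 to 2058 at P10. The log2 change was -3.98 ± 0.11 (SE) from P0 to P5 (limma adjusted p = 6.35e-09) and -1.17 ± 0.11 from P5 to P10 (adjusted p = 1.23e-05). The means at P0 and P10 differed 36.5-fold.

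Cfb, which pairs with C3 in the alternative pathway, fell once and then held its level. It was 166, 169 and 170 FPKM at P0, 43.5, 38.1 and 44.2 at P5, and 45.5, 44.3 and 43.2 at P10. P5 and P10 overlapped and both lay below P0. The log2 change was -1.98 ± 0.06 from P0 to P5 (limma adjusted p = 1.13e-08) and 0.08 ± 0.06 from P5 to P10 (95% confidence interval -0.05 to 0.21, adjusted p = 0.26).

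C3 and Cfb therefore stood in different proportions at each passage. Cfb as a percentage of C3 within a library, a ratio that no scaling of whole libraries can alter, was 12.2% to 15.0% at P0, 42.7% to 64.3% at P5 and 132% to 135% at P10. It was 0.128% to 0.240% in the 12 libraries of the hepatocyte table, and 17.4%, 18.5% and 32.3% in the Smart-Seq libraries, from grape-like over intermediate to round-like. The 3 passages of Cho-Orgs did not overlap in this ratio, and the libraries of the hepatocyte table lay below all others. With 3 libraries against 3 an exact permutation test cannot go below p = 0.10, and none was run on the ratios.

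C4b turned back up. It was 39.6, 51.8 and 41.0 FPKM at P0, 1.31, 1.36 and 1.67 at P5, and 3.21, 3.96 and 3.19 at P10. Each P10 library lay above each P5 library and below each P0 library. The log2 change was -4.20 ± 0.11 from P0 to P5 (limma adjusted p = 6.35e-09) and 0.86 ± 0.11 from P5 to P10 (adjusted p = 1.13e-04). On this scale, which understates low genes, the interval of the first step overlapped that of C3. In mean FPKM, C4b was 30.4-fold lower at P5 than at P0 and C3 15.9-fold lower. C4b as a percentage of C3 was 3.48% to 3.76% at P0 and 1.53% to 2.27% at P5, without overlap. C4a, a close relative that could share its reads, was not analysed here.

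C2, the protease that joins with C4, fell at both steps. It was 12.2, 18.3 and 14.3 FPKM at P0, 5.23, 4.56 and 4.32 at P5, and 1.86, 1.37 and 1.34 at P10, without overlap. The log2 changes were -1.47 ± 0.14 (limma adjusted p = 1.58e-05) and -1.18 ± 0.14 (adjusted p = 5.58e-05). C2 as a percentage of C4b was 30.8% to 35.3% at P0, 259% to 398% at P5 and 34.7% to 58.2% at P10, so the ratio peaked at P5 in all 3 libraries.

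**Figure D2:**
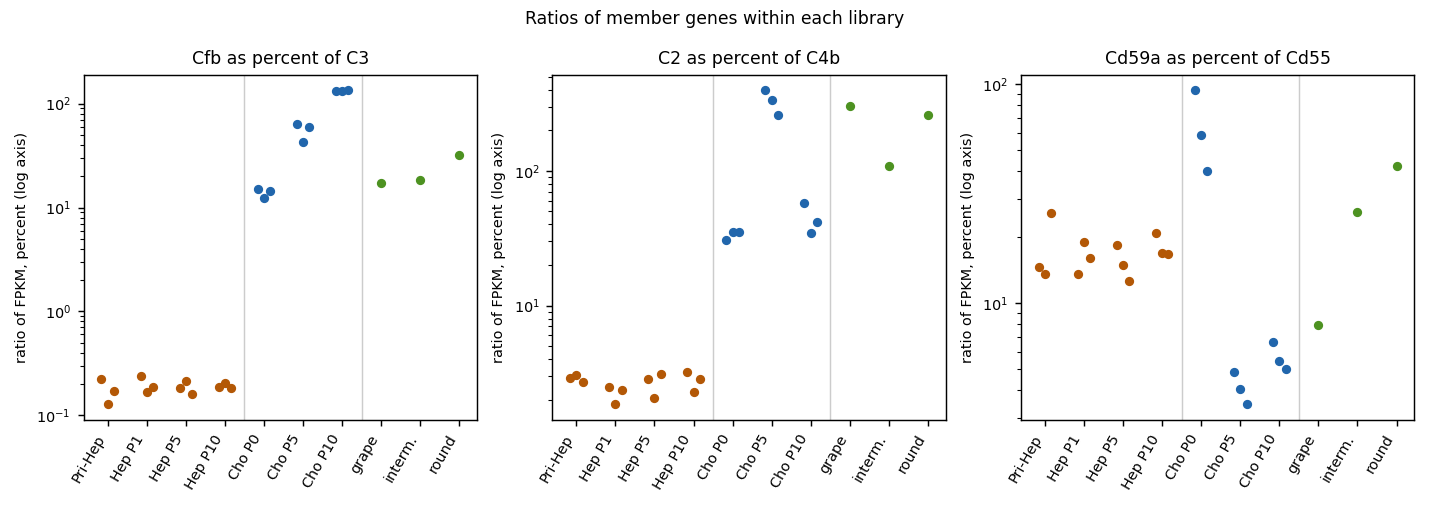
Ratio of FPKM between pairs of members within each library, in percent on a log axis, with 1 point per library and colours by table as brown for the hepatocyte table, blue for Cho-Orgs and green for Smart-Seq. Cfb as a percentage of C3 climbs from 12.2% to 15.0% at P0 of Cho-Orgs to 132% to 135% at P10, and is at most 0.240% in the hepatocyte table.

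Cfi fell at both steps, mostly at the first. It was 106, 96.4 and 99.6 FPKM at P0, 15.2, 15.7 and 13.7 at P5, and 11.4, 11.96 and 10.8 at P10. The groups did not overlap, and the log2 changes were -2.68 ± 0.06 (limma adjusted p = 3.20e-09) and -0.36 ± 0.06 (adjusted p = 9.52e-04).

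The late components were lost from detection. Hc was 5.55, 1.64 and 3.14 FPKM at P0, 0.00475, 0 and 0 at P5, and 0 in all 3 libraries at P10, where the P5 value corresponds to about 1 fragment. Against a floor of 3 fragments in a library, its mean at P0 was at least 272-fold higher than P5 and at least 269-fold higher than P10. C9 was 0.898, 0.941 and 0.668 FPKM at P0, 0.0117, 0 and 0.0231 at P5, and 0 in all 3 libraries at P10. Its mean at P0 was at least 26.9-fold higher than P5 and at least 26.7-fold higher than P10. The floors use gene lengths from the hepatocyte table and are approximate.

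The membrane regulators parted ways. Cd55 was 3.66, 7.23 and 6.64 FPKM at P0, 24.1, 25.8 and 25.6 at P5, and 6.51, 6.62 and 6.91 at P10. Every P5 library lay above every library of the other passages, and P0 and P10 overlapped. The log2 change was 1.98 ± 0.17 from P0 to P5 (limma adjusted p = 1.15e-05) and -1.77 ± 0.17 from P5 to P10 (adjusted p = 2.05e-05). From P0 to P10 it was 0.21 (95% confidence interval -0.18 to 0.60, adjusted p = 0.30), and without replicate 1 of each group it was -0.029. Cd55b, a close copy that could share reads, was at most 0.171 FPKM in any library of Cho-Orgs.

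Cd59a was 3.43, 4.22 and 2.66 FPKM at P0, 1.16, 1.05 and 0.887 at P5, and 0.432, 0.360 and 0.347 at P10. The groups did not overlap, and the log2 changes were -1.11 ± 0.12 (limma adjusted p = 4.22e-05) and -0.56 ± 0.12 (adjusted p = 0.0026). Cd59a as a percentage of Cd55 was 40.1% to 93.7% at P0, 3.46% to 4.83% at P5 and 5.01% to 6.64% at P10. Cd59b, a paralogue of Cd59a, reached no more than 0.291 FPKM in Cho-Orgs.

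**Figure D3:**
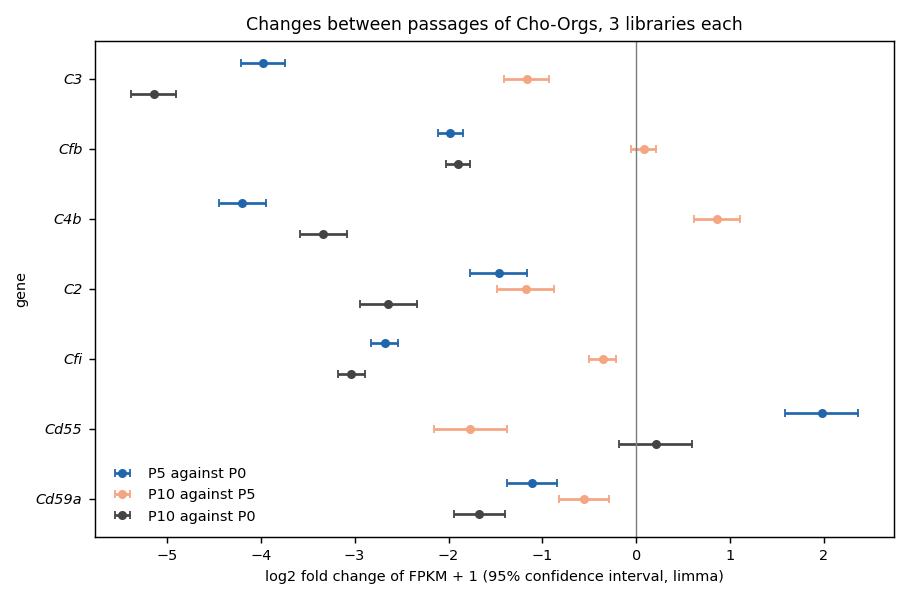
Log2 fold change of FPKM + 1 between passages of Cho-Orgs for the 7 members that reached 1 FPKM at more than 1 passage, with 95% confidence intervals from limma. All points for P5 against P0 lie left of 0 except Cd55 at 1.98, and for P10 against P5 the interval of C4b lies right of 0 and that of Cfb includes 0.

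Markers of cell types also changed between passages, and not all in the direction of most members. The 10 hepatocyte markers summed to 7244 to 8193 FPKM at P0, 207 to 253 at P5 and 77.8 to 83.5 at P10, and 9 of 10 fell from P0 to P5. The 10 cholangiocyte markers summed to 5178 to 6606, 3641 to 3766 and 3413 to 3442 FPKM at the same passages, with 4 of 10 rising and 3 of 10 falling from P0 to P5. The stellate cell markers summed to 64.6 to 79.4, 7.58 to 8.42 and 0.177 to 0.239 FPKM. The macrophage markers summed to 42.4 to 48.8, 72.1 to 77.3 and 10.1 to 10.5 FPKM, of which Cd68 gave means of 30.4, 74.5 and 9.53. Clec4f and Timd4 were at 0 at every passage, and Lyz2, Marco, Ptprc and Tyrobp at 0 at P5 and P10. The endothelial markers summed to 18.0 to 19.2, 19.1 to 21.9 and 8.40 to 9.49 FPKM, with Clec4g at 0 throughout. The part of these cell types in the results was not tested, and in bulk RNA fewer cells of a type and less RNA per cell cannot be told apart.

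Outside the 9 genes, 14 of 44 further complement genes were tested in Cho-Orgs. Of the 14, 3 reached 1 FPKM at P0 alone, C8g and Cpn2 among them, and are left out here because they could only be called lower than P0. From P0 to P5, 9 of the other 11 fell and 1 rose, beside 21.4% and 34.1% of the 11201 genes that reached 1 FPKM at more than 1 passage. From P5 to P10, 3 of 11 fell and 5 rose, shares of 27.3% and 45.5% beside 30.4% and 31.3% of the 11201 genes. All 7 soluble regulators that reached 1 FPKM at more than 1 passage, Cfi among them, fell from P0 to P5.

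The proteases that start the classical pathway followed the course of C4b. C1ra went from 5.26 ± 0.535 FPKM (SD, n = 3) at P0 to 0.894 ± 0.0391 at P5 and 2.98 ± 0.179 at P10, and rose by 1.07 in log2 at the second step (limma adjusted p = 2.20e-06). C1s1 went from 7.41 ± 0.361 to 0.481 ± 0.242 and 2.05 ± 0.170 FPKM, with a rise of 1.05 (adjusted p = 2.55e-05). The close copies C1rb and C1s2 were at most 1.18 FPKM in every library of Cho-Orgs, and reads could be split between copies. Masp2, a protease of the lectin pathway, took another course, from 0.427 ± 0.0735 to 1.19 ± 0.199 and 4.66 ± 0.216 FPKM, and was the only tested complement gene that rose from P0 to P10, though 2 did without replicate 2 of each group and with all genes above 0 tested (log2 change 1.99 ± 0.08, adjusted p = 3.16e-08).

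The soluble regulators took different courses. Clu, the most abundant complement gene of Cho-Orgs, was 6002 ± 718 FPKM at P0, 2558 ± 239 at P5 and 6510 ± 153 at P10, with a log2 rise of 1.35 at the second step (limma adjusted p = 2.04e-06). Vitronectin (Vtn), which binds forming pores, fell from 93.2 ± 14.4 to 1.14 ± 0.394 FPKM and was listed at 0 at P10. The C1 inhibitor Serping1 went from 37.3 ± 7.88 to 1.68 ± 0.551 and 0.0194 ± 0.0337 FPKM. C4bp, the plasma cofactor that acts on C4b, changed less, from 102 ± 6.12 to 59.8 ± 4.86 and 43.4 ± 1.06 FPKM, and fell at both steps.

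**Figure D4:**
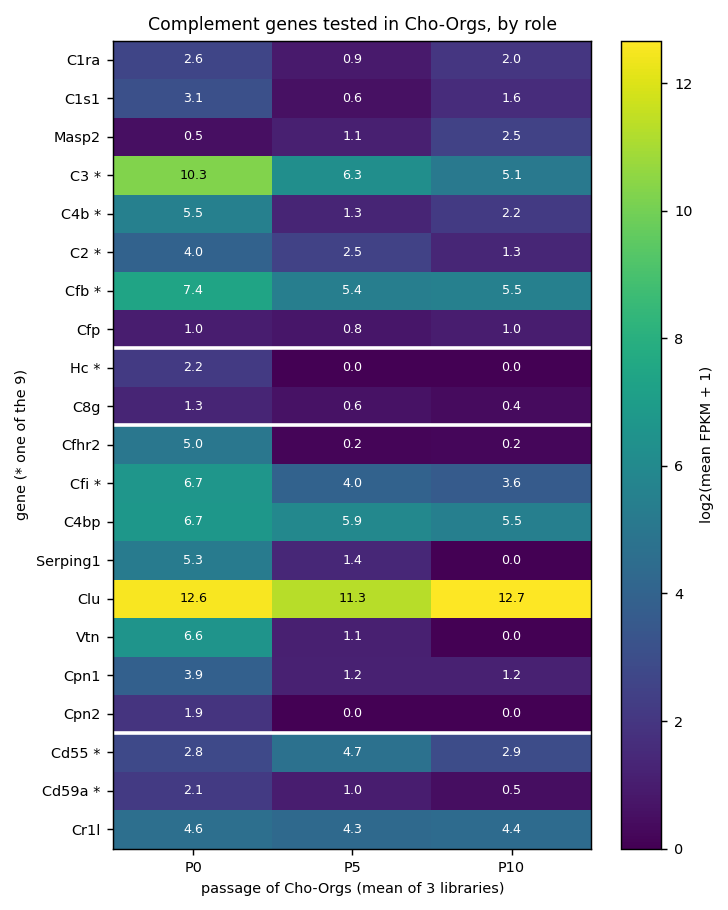
Mean level of tested complement genes in Cho-Orgs at P0, P5 and P10, as log2(mean FPKM + 1), with white lines between roles in the order initiation and convertases, terminal pathway, soluble regulators and membrane regulators. Asterisks mark members of the 9. C1ra, C1s1, C4b and Clu are lowest at P5, Cd55 is highest there, and Masp2 climbs across the passages.

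The genes whose course over the 9 Cho-Orgs libraries was most like that of a member, by the correlation of log2(FPKM + 1), are given as a description, since the libraries share passages. For C3 they were Cd302 (Pearson r = 0.999), Chrm3 and Sntb1. For C4b they included Ltb (r = 0.997) and Sgk1, and for C2 they were Prdx2 (r = 0.996), Hpn and BC004004. For Cfb they were Abca3 (r = 0.997), Gpr182 and Iigp1c, and for Cfi they included Orm1 (r = 0.999) and A1cf. The correlation does not measure the size of a change. Gpr182 had means of 1.41, 0.00521 and 0 FPKM at P0, P5 and P10, and Iigp1c 2.63, 0.00962 and 0.00482. Cfb kept means of 42.0 and 44.4 FPKM at P5 and P10. Hc reached 1 FPKM at P0 alone. The genes most like it were Aadac (r = 0.999), Serpina1e and Uroc1, with means of at most 0.00503 FPKM at P5 and P10. For Cd55 they were Lama3 (r = 0.992), Rictor and Marf1, and for Cd59a Nudt19 (r = 0.994), Rarb and Tspan33. The gene closest to Cd55, Lama3, had means of 0.346, 1.85 and 0.344 FPKM at P0, P5 and P10.

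In the Smart-Seq libraries the 9 genes fell into different orders across the 3 shapes. There is 1 library per shape, so the values are compared without a test, and the intervals given cover counting error only in amplified cDNA. C3 was 980 FPKM in the grape-like, 2390 in the intermediate and 921 in the round-like library. Cfi was 79.6, 209 and 69.2 FPKM, Cfb 170, 442 and 298, and C4b 16.2, 25.7 and 7.11, in the same order. These 4 genes were highest in the intermediate library.

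C2 and Cd55 were ordered otherwise, with the highest value in the grape-like library. C2 was 49.1, 27.7 and 18.4 FPKM and Cd55 94.3, 27.2 and 16.9. Hc was 4.38, 4.03 and 0.401 FPKM. C9 was listed at 0 in the grape-like library, at 0.460 FPKM in the intermediate and at 0.0219, about 2 fragments, in the round-like, where a count of 0 allows up to 0.0293 FPKM in the first. Cd59a was 7.50, 7.13 and 7.14 FPKM, with a difference of 0.07 in log2 between the grape-like and the round-like library (counting interval -0.10 to 0.24).

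Of the 8 members at 1 FPKM or more in some library, 4 were at least 2-fold higher in grape-like than in round-like on the log2(FPKM + 1) scale and 0 were at least 2-fold lower, beside 12.9% and 8.82% of all 12595 genes. The 4 were Cd55 (log2 ratio 2.42), Hc (1.94), C2 (1.37) and C4b (1.09). Without the pseudocount the ratio of Hc was 3.45 in log2 (counting interval 3.15 to 3.74). The median of the 8 was 0.64 and that of all genes -0.13. In the intermediate library 4 of the 8 members were at least 2-fold higher than in round-like, Hc (1.84), C4b (1.72), Cfi (1.58) and C3 (1.38), and 0 were at least 2-fold lower, beside 3.85% and 2.54% of all genes.

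Most genes of the complement lists were higher in the grape-like library. Of 41 complement genes at 1 FPKM or more in some library, 30 were at least 2-fold higher in grape-like than in round-like and 1, Clu, was at least 2-fold lower. These counts include the 8 members above, 4 of them among the 30. In the same order as above, C1qa was 771, 172 and 112 FPKM, properdin (Cfp), which stabilises the alternative pathway enzyme, 238, 71.0 and 48.6, and Vsig4, a receptor for C3 fragments on Kupffer cells, 555, 105 and 68.4. All 6 complement receptors at 1 FPKM or more were at least 2-fold higher in grape-like, beside 12.9% of all genes. Vtn was 62.7, 186 and 14.3 FPKM and C4bp 73.1, 216 and 106, highest in the intermediate library as for C3, Cfi and Cfb. Clu was 2649, 10436 and 8974 FPKM.

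Markers of cell types also differed between these libraries. The 10 macrophage markers summed to 8483 FPKM in the grape-like, 2562 in the intermediate and 1375 in the round-like library, and 10 of 10 were at least 2-fold higher in grape-like than in round-like. Lyz2, the most abundant, was 5942, 1792 and 887 FPKM. The stellate cell markers summed to 1397, 360 and 308 FPKM and the endothelial markers to 158, 72.5 and 39.4. The hepatocyte markers summed to 6042, 10404 and 1405 FPKM and the cholangiocyte markers to 909, 3528 and 2890. No defining marker of macrophages was at 0 in any of the 3. The macrophage, stellate and endothelial sums fell from grape-like over intermediate to round-like, as did C2 and Cd55. Hc was lowest in round-like. Its grape-like and intermediate values lay within counting error of each other (0.12 in log2, counting interval -0.003 to 0.24), so these cannot be ordered. The hepatocyte sum was highest in intermediate and lowest in round-like, as were C3, Cfi and C4b. The cholangiocyte sum was highest in intermediate and lowest in grape-like, as was Cfb. C9 was also highest in intermediate, but in grape-like and round-like it was at or under the floor of 3 fragments, so these cannot be ordered. The part of these cells in the result was not tested.

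**Figure D5:**
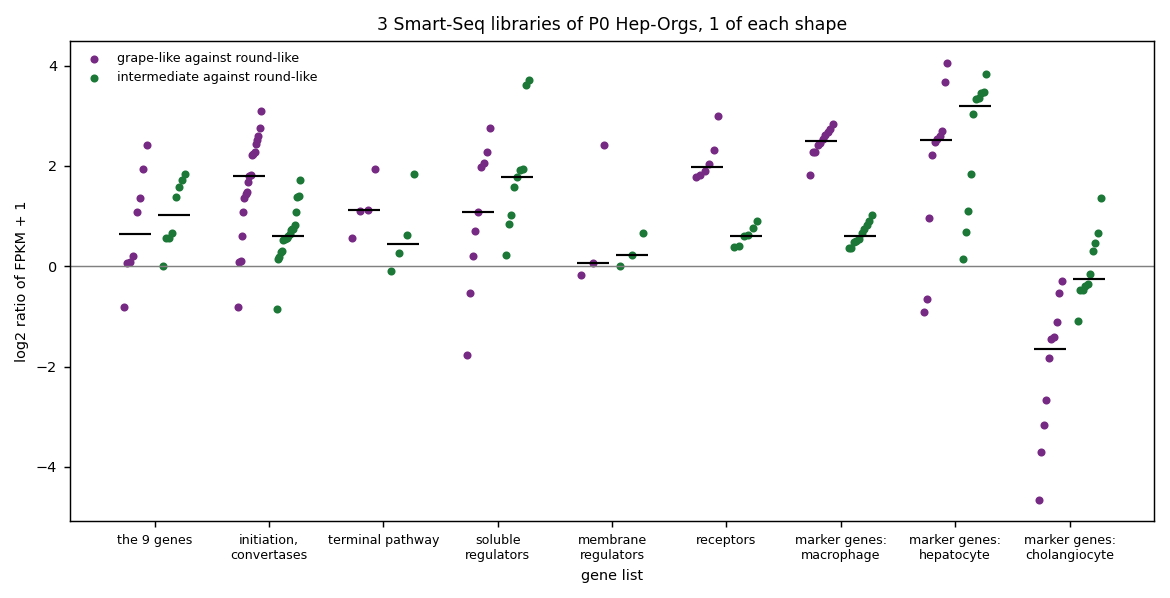
Log2 ratio of FPKM + 1 for grape-like against round-like (purple) and intermediate against round-like (green) Hep-Orgs, with 1 point per gene at 1 FPKM or more in some library, and black lines for the median of each list. In purple the complement receptors and the macrophage markers lie above 0 and the cholangiocyte markers below, while in green the hepatocyte markers have the highest median, at 3.19.

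Set side by side, the level of C3 was at least 921 FPKM in every library of the hepatocyte and Smart-Seq tables and in P0 of Cho-Orgs, and at most 89.2 FPKM at P5 and P10 of Cho-Orgs. Cfb was 1.87 to 3.61 FPKM in the hepatocyte table and at least 38.1 FPKM in every other library. Hc at 0.401 FPKM or more occurred in Cho-Orgs P0 and the 3 Smart-Seq libraries, which are all cultures at P0, and in none of the 18 libraries from Pri-Hep or from P1, P5 and P10. The tables differ in cells, medium, library type and normalisation, which cannot be told apart here.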

How the data were processed

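RNA was measured in 24 libraries of mouse liver cells and organoids. The authors deposited FPKM, in 3 tables each normalised on its own. The submitters' processing notes name featureCounts 2.0.3, edgeR 3.40.2 and mm10; the aligner and annotation are not given in the sources used here. In the hepatocyte table FPKM times gene length was a whole number of fragments for 100% of values (tolerance 0.02), which gave the depth. In the other tables depth was estimated from the steps between low values. The 9 genes and the lists were chosen with earlier results of these data known.

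FPKM was tested as log2(FPKM + 1) with limma 3.58.1 in R 4.3.3 (lmFit, eBayes with trend, all groups of a table in 1 fit, two-sided), for genes at 1 FPKM or more in at least 3 libraries, with Benjamini-Hochberg adjustment over all genes tested. The fit was tested on simulated data. Fold changes on this scale understate low genes. Named were the 9 genes, complement genes past the threshold in a comparison or among the 3 highest of a group, markers beside a result, and the 3 most alike genes of each tested member, passing over Gm numbers and Rik names. Some genes that this rule names are not reported here, though counts include them. C1q, C6, receptor, Cfp and paralogue levels were named after their values were seen. Alternatives were a pseudocount of 0.1, 2 other filters, TPM, median-ratio size factors, no trend, a replicate block, each replicate left out, fits of 2 groups alone and limma-voom. Leaving genes that reached 1 FPKM at 1 passage only out of the Cho-Orgs counts was chosen after the data were seen.

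For libraries of different groups with the same replicate number, the median correlation of deviations from group means was -0.00155 in the hepatocyte and -0.00626 in the cholangiocyte table, so the numbers were not taken as pairs.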

Additional observations from a re-analysis of the deposited data

How the results depend on the processing

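No member was called among the 4 groups of the hepatocyte table or for all Hep-Orgs against Pri-Hep, and no called change of a member in Cho-Orgs was lost or changed direction, in any alternative that could be fitted for it. Of 247 alternative values for members in Cho-Orgs 246 kept direction and side of the threshold, and of 330 for other complement genes 327 did. The exceptions included Cd55 from P0 to P10, which was not called and ranged from -0.029 to 0.37 in log2 without 1 replicate of each group, and Cr1l, which lost its call from P0 to P10 without replicate 1 (-0.15) and replicate 3 (-0.21). Hc could be fitted only where its filter let it pass, since without any replicate it has only 2 libraries at 1 FPKM or more, and with it 7 members were called lower in P5 against P0 and in P10 against P0, and 6 without it.

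Counts over many genes moved more. In the hepatocyte table the 2 genes called among the 4 groups became 0 with no trend, 0 with the replicate block, 65 with limma-voom and 0 to 2 without 1 replicate. For all Hep-Orgs against Pri-Hep the count of 0 became 1 with all genes above 0 and 12 with limma-voom. In Cho-Orgs, genes of mean FPKM of at least 5 gave 1693, 2316 and 2357 lower calls for P5 against P0, P10 against P5 and P10 against P0, in place of 2621, 3533 and 3634, since fewer genes were tested. Without 1 replicate, 1555 to 2098 genes were lower in P5 against P0. For the complement lists, all genes above 0 gave 4 higher and 32 lower in P5 against P0 (2 and 19 in the report's fit) and 2 higher and 32 lower in P10 against P0 (1 and 18). A mean of at least 5 gave 1 higher in P5 against P0, 3 in P10 against P5 (6 in the report's fit) and 0 in P10 against P0. Fits of only the 2 groups gave 1 higher in P5 against P0, and leaving out 1 replicate gave 1 to 2 higher in P10 against P0.

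With the replicate block, no call of a member or of a listed complement gene changed in number, and 3830, 3511 and 4664 genes were called higher in Cho-Orgs in place of 3938, 3599 and 4750. Among the Smart-Seq libraries, 4 members were past 2-fold under every scaling tried. The levels of C2, Cd59a, Hc and C9 in the hepatocyte table are limited by depth. The intervals of the Smart-Seq libraries and the floors cover counting error only. The limma intervals rest on the spread between libraries.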
